A study of Mus musculus with 2 samples.

Results

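The strong KO-gained H3K27ac sites are positions at which acetylated lysine 27 of histone H3 was measured at least 6 times as high in cells without Dicer as in cells with it. They were chosen from the authors' list of 8323 H3K27ac events that were higher in the Dicer knockout. An event is a point to which the authors' software assigned sequenced fragments. Each chosen event lay on a placed chromosome, had at least 6 times as many reads in the knockout (KO) as scaled reads in the wild type (WT), and belonged to a region of fewer than 4 events when events at most 5 kb apart were merged. The rule found 307 events, 3.69% of the list, in 227 regions. Over the whole list, 375 events (4.51%) reached the ratio of 6. Of these, 3 lay on unplaced sequence and 65 in regions of 4 or more events, and both sets were left out.

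Both groups were monoclonal, immortalized mouse mesenchymal stromal cells, called fibroblasts in the sample titles, and were grown in the same serum-containing medium. One group was Dicer KO and the other Dicer WT, and no other treatment is named. Each genotype may therefore stand for a single clone. The series' design text mentions 2 replicates for each genotype, whereas the labels give 1 sample per genotype and the list gives 1 pooled value per genotype, so clone, genotype and library cannot be told apart, and no replicate error or test between genotypes can be given.

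H3K27ac is placed by the acetyltransferases p300 and CBP on nucleosomes at active enhancers and active promoters, and it separates active enhancers from poised ones. H3K4me3 marks the starts of active and poised genes, and H3K36me3 is laid down along gene bodies during transcription elongation. Dicer cuts microRNA precursors into mature microRNAs, which repress messenger RNAs after transcription. Mesenchymal stromal cells can form bone, cartilage and fat, and distal enhancers contribute to the choice between these fates.

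The only DNA letters held by the lists are short k-mers that the event caller attached to some H3K4me3 events. Within 1 kb of the strong sites lay 52 KO-higher H3K4me3 events, of which 4 (7.69%) carried a k-mer, against 126 of all 738 (17.1%). The 4 are shown because they are the sequences tied to these sites, with the whole 8-base k-mer in capitals.
Chromosome 16, H3K4me3 event at 22162742: CACTTTCA
Chromosome 15, H3K4me3 event at 10105288: TTTCACTT
Chromosome 6, H3K4me3 event at 137507514: ACTTTCAC
Chromosome 6, H3K4me3 event at 137509012: TTCACTTT
All 4 are windows of one repeated 6-base unit, TTTCAC, as were all 126 k-mers of that list, which came in 4 forms. The k-mers thus did not set the strong sites apart. No genome or annotation in mouse build mm9, the build of the positions, was used here, so bases around the sites and the genes at them were not analysed.

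The ratio chose the members, so the reads of both genotypes are given as a description. KO reads at the strong sites numbered 186.4 to 1174, with a median of 419.5, and scaled WT reads 11.1 to 187.6, with a median of 53.5. At the other 8007 events on placed chromosomes the medians were 371.6 KO reads and 134.6 scaled WT reads. In KO the strong sites thus lay near the rest of the list, and in WT they lay lower. Across the 307 sites the ratio went with the WT reads (Spearman's rho of -0.486) more than with the KO reads (0.0744). Both reads enter the ratio, so these values describe how the rule was met.

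**Figure D1:**
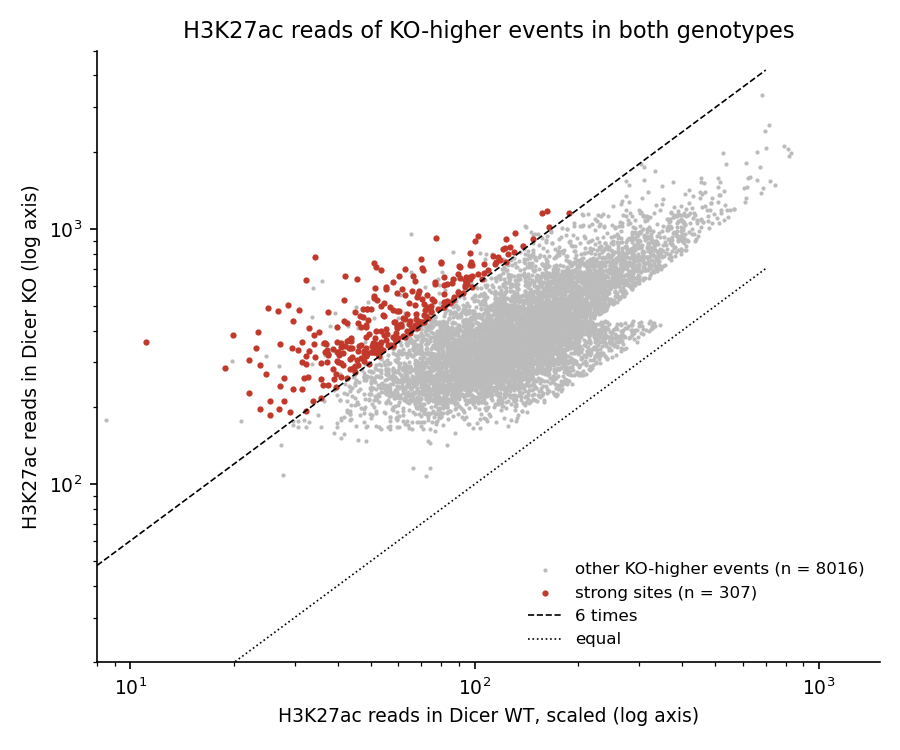
H3K27ac reads in KO (vertical, log axis) against scaled reads in WT (horizontal, log axis) for every KO-higher event; red points are the 307 strong sites and grey points the other events. The strong sites lie on or above the dashed line of 6 times, at KO reads like those of many grey points (medians of 419.5 and 371.6) but at fewer WT reads; grey points above the line were left out for their region or unplaced sequence.

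None of the 307 sites had 0 WT reads, as none of the 8323 listed events had. The lists also hold an expected number of reads, 1 value per chromosome and genotype, which the sources used here do not define. All 307 sites exceeded that value in KO, as did all 8323 events of the list. In WT, 14 of the 307 (4.56%) exceeded the WT value, against 3662 of the other 8007 events (45.7%). The first count holds for the whole list and the second follows largely from a rule that asks for few WT reads, so neither bears on the word gained.

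Ratios ran from 6 to 32.4, with a median of 7.30 and quartiles of 6.47 and 8.95. A ratio of 8 was reached by 111 sites and one of 12 by 23. The interval given with each ratio is the exact conditional binomial 95% interval of the reads and covers counting error only. Its lower limit was at least 6 for 121 sites and nowhere below 4.23. At the threshold, the 5 sites just inside had ratios of 6.00 to 6.01 and the 5 events just outside had 5.99. The last site inside, at 77561554 on chromosome 7, had 408 KO reads against 68 scaled WT reads, with an interval of 4.71 to 7.73. The first event outside, at 37006940 on chromosome 1, had 233.2 and 38.9, with an interval of 4.33 to 8.37. Counting error does not separate these sets, and 398 of the 6894 events under the threshold had an interval that reached 6.

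The largest ratio, 32.4 (18.8 to 61.8), belonged to the event at 8120700 on chromosome 17, with 359.7 KO reads against 11.1 scaled WT reads. It was an isolated event, and its deposited −log10 q of 10.03 was far below the 178.67 of the next site. That site, at 49164356 on chromosome 6, had 777.5 KO reads against 34.4, a ratio of 22.6 (16.7 to 32.3). The order by ratio and the order by reads were thus not the same.

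Of the 10 largest ratios, 3 belonged to the same region on chromosome 6 and 3 to the same stretch of chromosome 17. On chromosome 6, the event at 49157015 had 630 reads against 32.3 (19.5, 14.1 to 27.8) and that at 49160352 had 393.7 against 23.5 (16.8, 11.3 to 25.3). On chromosome 17, the event at 8091429 had 491.2 reads against 25.1 (19.6, 13.3 to 28.9) and that at 8092884 had 476 against 26.9 (17.7, 12.2 to 25.9). These sites are among the largest ratios by choice. Elsewhere neighbours differed more, as on chromosome 12, where the event at 28300621 had a ratio of 15.1 and that at 28301889 one of 7.34.

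On chromosome 16, the event at 22161660 had 382.8 KO reads against 19.8 (19.3, 12.9 to 31.3), and the one at 22162761 had 505.9 against 28.6 (17.7, 12.4 to 25.6). The event at 78628770 on chromosome 11 had 656 reads against 42.1 (15.6, 11.6 to 21.0), and the neighbouring site at 78627401 had a ratio of 8.76. The last of the 10, at 158132657 on chromosome 2, had 479.6 against 30.9 (15.5, 11.2 to 22.7). The lowest of the 10 lower limits was 11.2, given as a description, since the same ratio chose these sites.

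By reads, the leading sites were others. The event at 67892574 on chromosome 11 had the most, 1174 in KO against a scaled 162.3 in WT (7.23, 6.20 to 8.48). The event at 118348554 on chromosome 2 had 1153.6 against 156.6 (7.37, 6.31 to 8.67), and that at 194616221 on chromosome 1 had 1151.8 against 187.6 (6.14, 5.31 to 7.12). Among the 10 sites with the most reads, the one with the largest ratio was 31744794 on chromosome 12, with 923 KO reads against 77.3 (11.9, 9.62 to 14.98). None of these 10 was among the 10 largest ratios.

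Single events made up 92 of the 227 regions, pairs 90 and groups of 3 events 45. Sites that were single had a median of 349.5 reads in KO, those in pairs 435.25 and those in groups of 3 events 549, while the median ratios were 7.22, 7.34 and 7.30. Of the regions with 2 events, 46 held 2 strong sites, and of those with 3 events, 10 held 3. The other events of these regions, 100 in all, had ratios under 6 by the rule, with a median of 4.62 (quartiles 3.94 and 5.28). In regions of 2 or 3 events without a strong site, the median was 2.77 (2.24 and 3.45; 3495 events). A ratio of 4 was reached by 72% of the first and 13.5% of the second. A whole number of KO reads (within 0.001) was listed for 72.8% of the single sites and 39.2% of those in groups of 3. Over the whole list it was 47.7%, and 50.7% for events under a ratio of 6 in regions of fewer than 4. Neither this share nor the median KO reads were computed by region size for the other events. The source of the fractional counts was not tested.

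Some sites were also close to each other beyond 5 kb, and closeness was common over the whole list. Another KO-higher H3K27ac event lay within 50 kb of 91.9% of the strong sites and 86.6% of the other events. Within 5 kb the shares were 70.03% and 58.8%, and within 1 kb they were 4.23% and 8.03%, the other way round. The rule left out regions of 4 or more events, whereas the other events include them. These shares therefore do not compare like with like, and no conclusion is drawn from them. Joined at distances of at most 50 kb, a distance chosen after the data were seen, the 307 sites formed 174 chains. Of these, 102 were a single site and 27 held 3 or more, with 115 sites together. Such chains were not formed for the other events, so these counts have no background. A joint ratio below sums the strong sites of a chain only, so it exceeds 6 by the rule and is not the ratio of the whole stretch. The longest chain ran from 84350435 to 84504356 on chromosome 1, with 11 strong sites over 153922 bp among 21 listed events. Its sites together had 5028 KO reads against 585.4, a joint ratio of 8.59 (7.93 to 9.32), and their single ratios ran from 6.39 to 11.1. All 21 listed events of the stretch together gave 6.75 (6.41 to 7.10), with a lowest ratio of 3.74. A second chain on the same chromosome, 84237998 to 84258365, held 4 sites with a joint ratio of 10.7 (9.17 to 12.5).

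On chromosome 17, 6 sites between 8062303 and 8120700 together had 2694.9 KO reads against 164.2, the highest joint ratio of any chain of 4 or more (16.4, 14.2 to 19.1). All listed events of that stretch were strong sites, with ratios of 13.0 to 32.4. Most lay over 5 kb apart, so the region rule counted 4 of them as isolated events. On chromosome 11, 7 sites from 111758203 to 111832680 had a joint ratio of 9.03 (8.14 to 10.0), again with no weaker listed event among them. A chain of 7 on chromosome 12, 31711315 to 31782666, had 8.52 (7.68 to 9.48), or 7.94 (7.22 to 8.74) over its 9 listed events, and 6 sites at 62748414 to 62780604 on chromosome 11 had 7.51 (6.83 to 8.27). In these 4 chains, 3 had no KO-higher H3K4me3 or H3K36me3 event within 1 kb of the stretch, and the chain on chromosome 12 had 1 and 3.

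**Figure D2:**
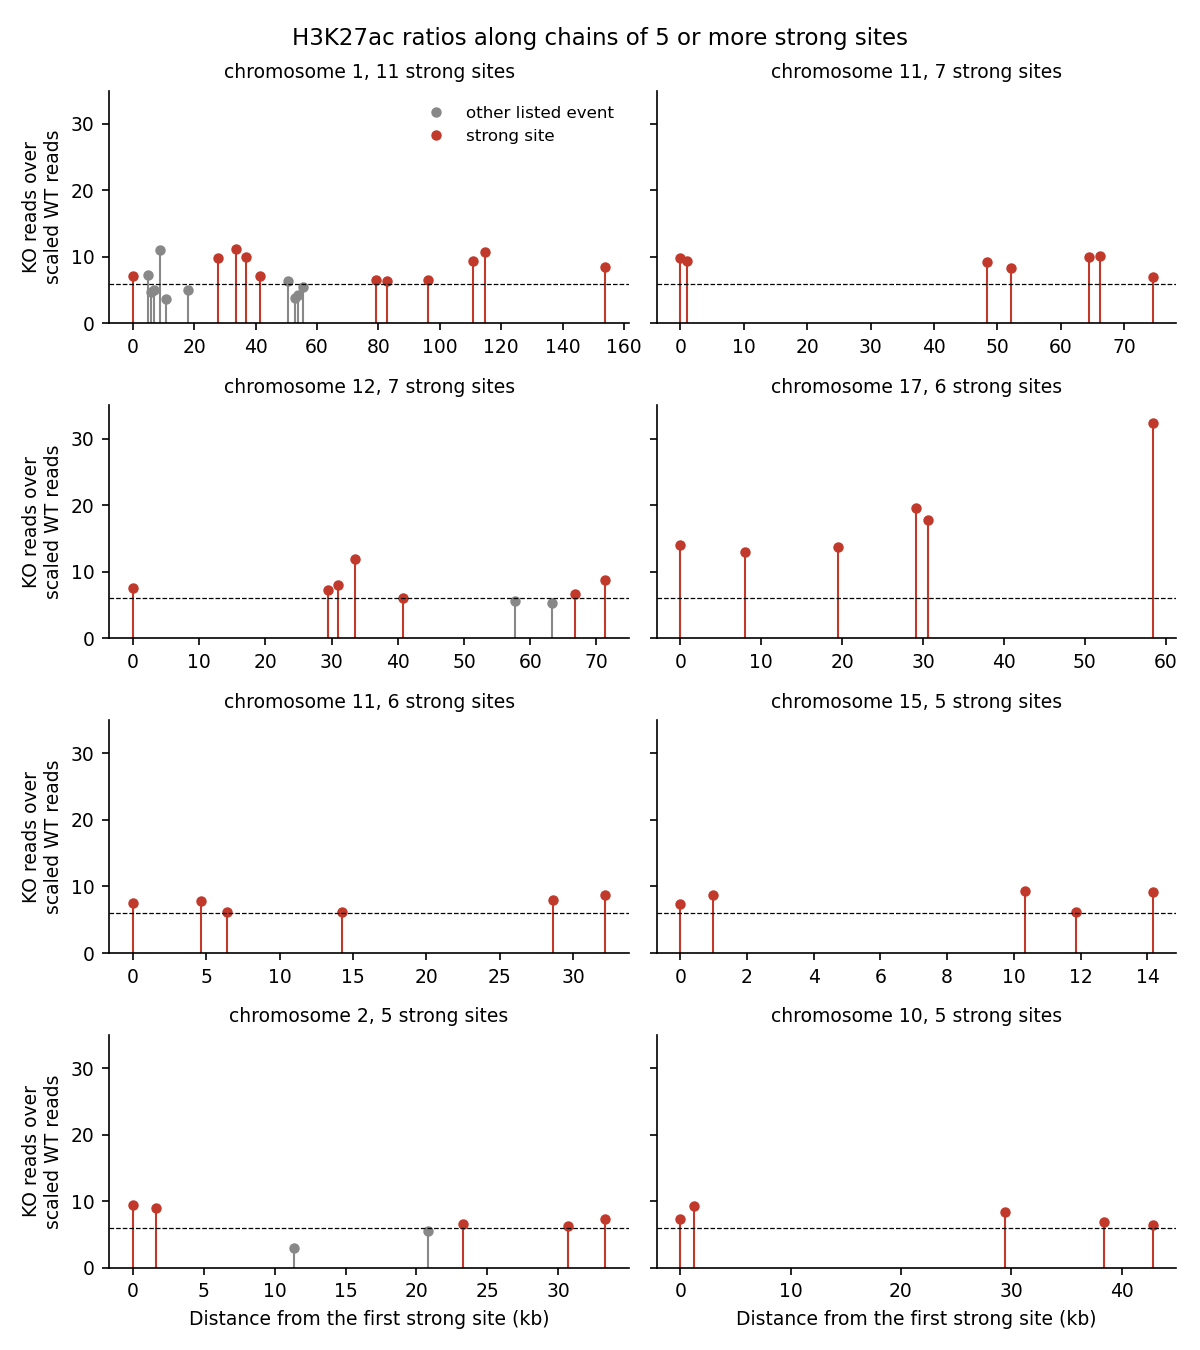
Ratio of KO reads to scaled WT reads (vertical) against the distance from the first strong site in kb (horizontal) for the 8 chains of 5 or more strong sites; red points are strong sites, grey points other listed KO-higher events, and the dashed line marks a ratio of 6. The chain on chromosome 17 stands highest, at 13.0 to 32.4, and the chain of 11 sites on chromosome 1 holds grey events among its sites, some above 6 that lay in regions of 4 or more events.

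The share of KO-higher events that were strong sites differed between chromosomes. It was 7.92% on chromosome 17 (24 of 303, exact Clopper-Pearson 95% interval 5.14 to 11.6), 7.02% on chromosome 11 (36 of 513, 4.96 to 9.58) and 6.40% on chromosome 12 (44 of 687, 4.69 to 8.50). It was 1.39% on chromosome 14 (5 of 360, 0.452 to 3.21), and chromosome 19 had none of 131 events (0 to 2.78). The intervals take events as independent, although the 6 sites of the chain on chromosome 17 lie together. Chromosome 12 gave the most sites, 14.3% of all, from 8.26% of the placed events.

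The expected number of reads also differed between chromosomes. The KO to WT ratio of expected reads was 1.44 on chromosome 12, 1.29 on chromosome 11 and 1.22 on chromosome 17, against a median of 1.13 over 20 chromosomes, and 0.717 on chromosome 9. It was also above that median on chromosomes 1 (1.23), 2 (1.15), 6 (1.26), 7 (1.23), 15 (1.18), 16 (1.18) and 18 (1.18). Their shares of strong sites were, in that order, 4.43%, 5.25%, 2.83%, 2.40%, 3.76%, 2.45% and 1.96%. With each genotype divided by its own expected reads, the 307 sites had a median ratio of 5.20, with a lowest of 3.54. A ratio of 6 was then reached by 96 of them, among these 5 of the 44 on chromosome 12, 9 of the 36 on chromosome 11, 11 of the 24 on chromosome 17, and both on chromosome 9. This scale divides each ratio by 1 constant per chromosome, so sites chosen at 6 stay above equal reads by construction. The number over 6 and the place of chromosome 12 depended on the scale. The part of the chromosome-wide difference in these ratios was not tested.

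**Figure D3:**
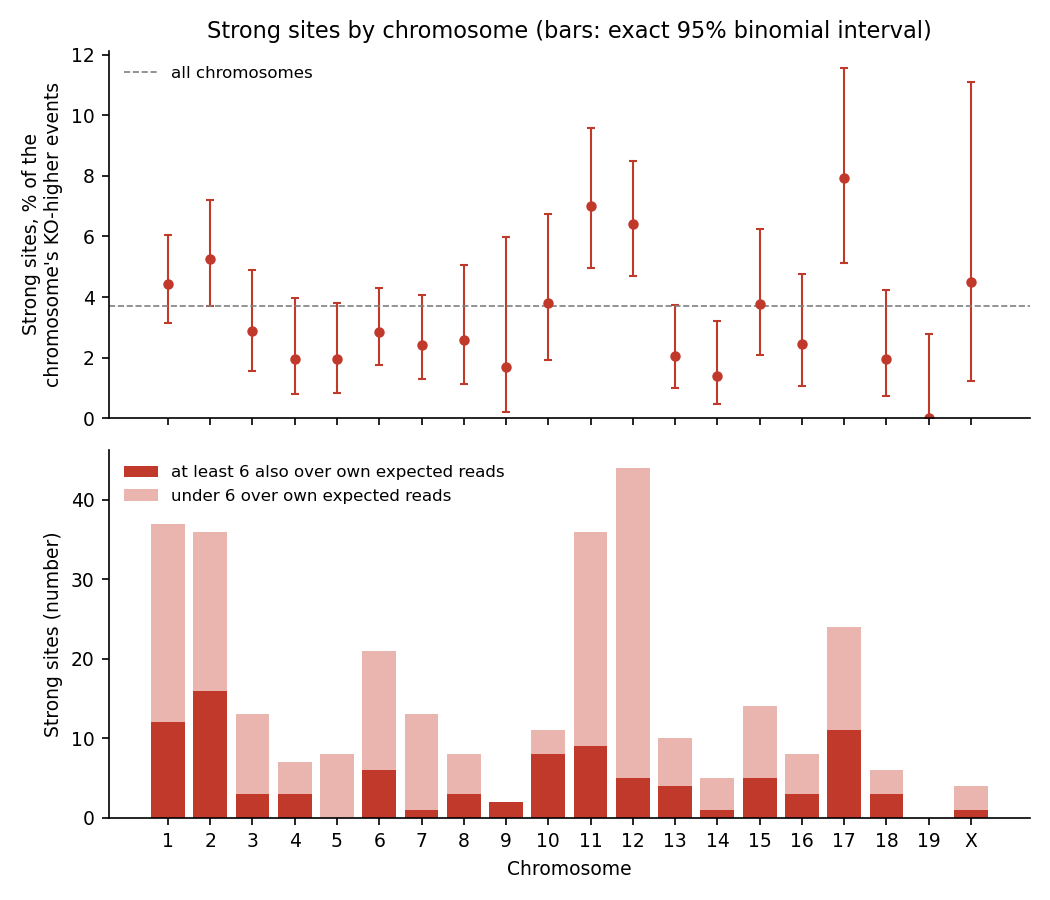
Top, strong sites as a percentage of each chromosome's KO-higher H3K27ac events, with exact 95% binomial intervals and a dashed line at 3.69% for all placed chromosomes; bottom, the number of strong sites, with those that also reached a ratio of 6 over each genotype's own expected reads in dark red. Chromosome 12 has the most sites, 44, but 5 of them reach 6 on the second scale.

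H3K4me3 and H3K36me3 were not used by the rule and show what else was higher in KO at these places. A KO-higher H3K4me3 event lay within 1 kb of 34 of the 307 strong sites, 11.1% (7.79 to 15.1), against 4.61% of the whole H3K27ac list. For the other 8007 placed events it was 350, or 4.37% (3.93 to 4.84). A KO-higher H3K36me3 event lay within 1 kb of 9 sites, 2.93% (1.35 to 5.49), against 0.853% of the whole list and 0.774% (0.594 to 0.992) of the others. Within 5 kb it was 35 sites, 11.4% (8.07 to 15.5), against 5.29% of the list and 5.06% (4.59 to 5.56) of the others. These intervals do not overlap, but they cover counting error among events and no replicate stands behind them. For H3K36me3 this depended on the setting. Within 500 bp it was 0.651% (0.0790 to 2.33) against 0.287% (0.182 to 0.431) of the others, and these intervals overlap. Without the sites on chromosome 12, the share within 1 kb was 2.28% (0.842 to 4.90), which overlaps the interval of the others on all chromosomes. Counted by region, 30 of the 227 regions had H3K4me3 within 1 kb of a strong site, 13.2% (9.10 to 18.3). The share by region was not computed for the rest of the list, so it cannot be set against the shares by event.

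Among events in regions of fewer than 4, the shares for H3K4me3 within 1 kb and H3K36me3 within 5 kb were higher in classes of higher H3K27ac ratio from 2 upward. H3K4me3 lay within 1 kb of 3.79% of events with ratios of 2 to 3 (3.17 to 4.49), 5.83% at 4 to 6 (4.43 to 7.50), 7.65% at 6 to 8 (4.35 to 12.3), 15.9% at 8 to 12 (8.98 to 25.2) and 21.7% at 12 or more (7.46 to 43.7). The last class held 5 of 23 sites, and its interval overlaps those of the classes from 4 upward. Sites of 6 to 8 were not separated from events of 4 to 6. H3K36me3 within 5 kb had shares of 7.49% at 4 to 6, 8.67% at 6 to 8, 13.6% at 8 to 12 and 26.1% at 12 or more (10.2 to 48.4). Within 1 kb H3K36me3 had no such order, with 1.35% at 4 to 6, 3.06% at 6 to 8, 1.14% at 8 to 12 and 8.70% at 12 or more, the last from 2 of 23 sites (1.07 to 28.0). The median KO reads also differed between the classes, from 366.5 at ratios of 2 to 3 to 390.7, 416, 429.5 and 476 in the classes from 4 upward, and the part of read number in these shares was not tested. The 65 strong events of larger regions had H3K4me3 in 3 cases, 4.62% (0.962 to 12.9), an interval that overlaps that of the strong sites.

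**Figure D4:**
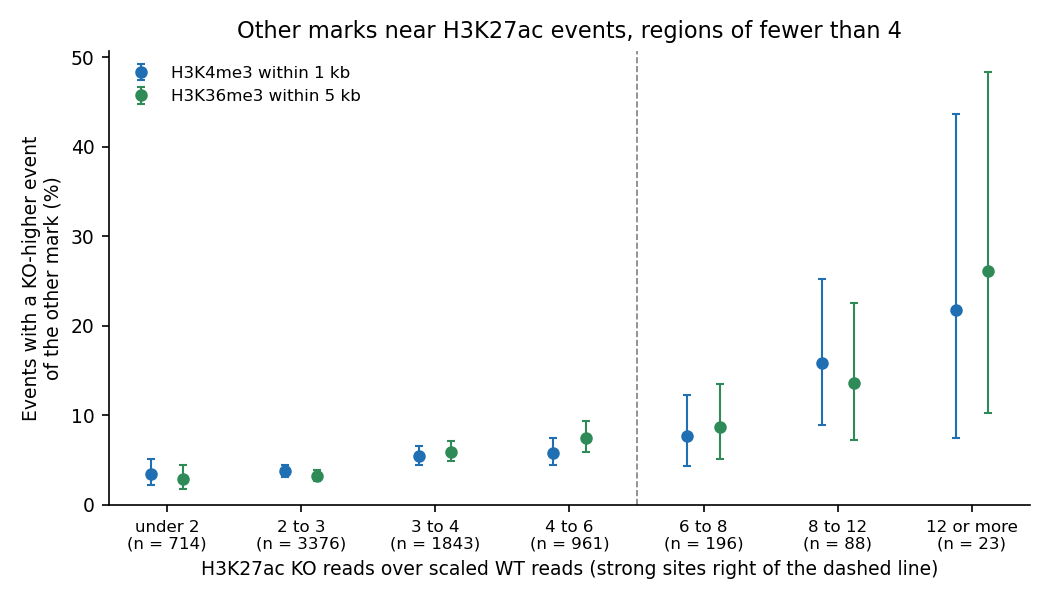
Share of H3K27ac events with a KO-higher event of H3K4me3 within 1 kb (blue) or of H3K36me3 within 5 kb (green), by class of H3K27ac ratio, for events in regions of fewer than 4; bars are exact 95% binomial intervals and strong sites are right of the dashed line. H3K4me3 goes from 3.79% at ratios of 2 to 3 to 21.7% at 12 or more, where the interval is wide because the class has 23 sites.

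At the 34 sites with H3K4me3, the nearest such event lay a median of 101.5 bp away, and within 100 bp at 17 of them. It lay within 500 bp at 29 of the 34 sites, and at 269 of the 350 other events with H3K4me3 within 1 kb. The median and the count within 100 bp were not computed for the other events, and the 1 kb window limits both. The 52 H3K4me3 events had a median ratio of 7.02 (quartiles 4.28 and 16.3), against 3.90 (2.82 and 6.68) for the other 686 of that list. A ratio of 6 was reached by 31 of the 52, 59.6%, and by 32.2% of the whole H3K4me3 list. The 52 events are not independent, as 13 of the 34 sites had more than 1 of them within 1 kb. With the H3K4me3 reads within 1 kb summed, the ratio at the 34 sites ran from 2.50 to 26.1 with a median of 6.23, and it exceeded the H3K27ac ratio at 10 sites. The 2 ratios went together weakly over the 34 sites, some of which share an H3K4me3 event, with a Spearman's rho of 0.104 and a Pearson's r of the log2 ratios of 0.242.

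The size of the difference in the 2 marks could part at single sites. At 26012833 on chromosome 16, H3K27ac had 763.2 KO reads against 69.9 (10.9, 8.71 to 13.9), and 3 H3K4me3 events had 1336 against 61.5 (21.7, 14.9 to 32.2). At 33794912 on the same chromosome, the H3K27ac reads of 483.4 and 71.5 gave 6.76, and H3K4me3 had 182.5 against 7, a ratio of 26.1 with a wide interval of 9.52 to 138. In contrast, at 36763692 on chromosome 12 an H3K27ac ratio of 10.1 (429 against 42.5) stood beside an H3K4me3 ratio of 2.50 (203.5 against 81.5, 1.76 to 3.64). At 47277427 on chromosome 17 the values were 9.95 for H3K27ac and 3.23 (2.75 to 3.84) for H3K4me3.

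Some leading sites on chromosomes 6, 16 and 2 lay beside KO-higher H3K4me3, the mark of gene starts. Summed within 1 kb, H3K4me3 at 49164356 on chromosome 6 had 2743.4 KO reads against 174.6 (15.7, 12.7 to 19.9). At 22161660 on chromosome 16 it had 3289.6 against 175 (18.8, 15.02 to 23.6), and at 158132657 on chromosome 2 it had 468.5 against 32.6 (14.4, 8.73 to 26.2). The neighbouring site at 22162761 on chromosome 16 had a lower H3K4me3 ratio, 6.02 (5.16 to 7.11), beside its H3K27ac ratio of 17.7. Among the 10 largest ratios, sites at 49157015 and 49160352 on chromosome 6 and 78628770 on chromosome 11 had none within 1 kb. None of the 6 sites of the chain on chromosome 17 had a listed H3K4me3 event within 1 kb, although the largest H3K27ac ratio was among them. A place without a listed event can still carry the mark, at a level that did not differ enough to be listed.

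**Figure D5:**
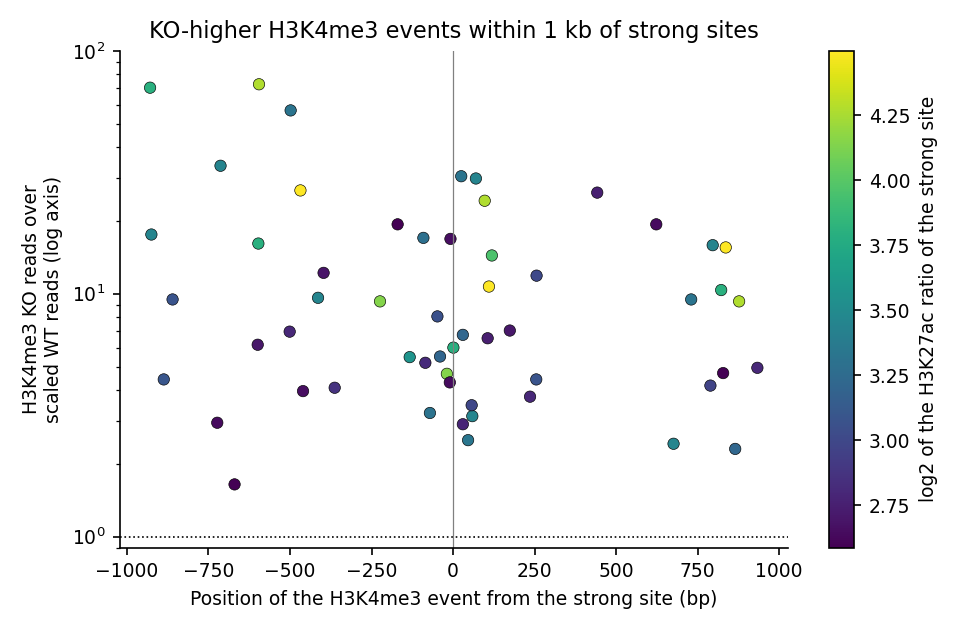
Ratio of H3K4me3 KO reads to scaled WT reads (vertical, log axis; dotted line at equal reads) against the position of the H3K4me3 event from the strong site in bp (horizontal); each point is a pair of a strong site and an H3K4me3 event, coloured by the log2 of the site's H3K27ac ratio. All points lie above equal reads, from 1.64 to 72.8, and high H3K4me3 ratios occur at light and dark colours.

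H3K36me3 was rarer close to the sites and rested on few reads. At 49157015 on chromosome 6, the H3K36me3 event 992 bp away had 56.9 KO reads against a scaled 0.8 in WT, so that its ratio of 71.1 had an interval of 17.1 to 3983. At 113624811 on the same chromosome, 61 reads stood against 14.9 (4.09, 2.54 to 6.73), only 36 bp from the site. On chromosome 12, the site at 31778030 had 2 H3K36me3 events, with 28 against 4.6 (6.09, 2.70 to 15.5) and 22 against 5.7 (3.86, 1.74 to 9.05). Of the 10 H3K36me3 events within 1 kb of a site, 5 reached a ratio of 6, against 25.2% of that list.

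Both other marks lay within 1 kb of 2 sites. At 32539071 on chromosome 12, H3K27ac had 458.9 KO reads against 54.3 (8.45, 6.49 to 11.1), H3K4me3 had 305 against 68.7 (4.44, 3.08 to 6.61) and H3K36me3 had 36 against 8 (4.50, 2.35 to 8.98). At 95843642 on chromosome 11, H3K27ac had 433.3 against 69.6 (6.23, 4.90 to 7.97), H3K4me3 1261 against 319.7 (3.94, 3.33 to 4.71) and H3K36me3 33.5 against 6.7 (5, 2.49 to 10.5). The remaining 266 of the 307 sites, most of the set, had neither mark listed as KO-higher within 1 kb.

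Within 1 kb, events higher in WT were rare at the strong sites and at the rest of the list. No H3K4me3 or H3K36me3 event higher in WT lay within 1 kb of any of the 307. With 3 events taken as the upper limit for a count of 0, this allows a share of up to 0.977%, which is no exact limit. Among the other placed events such shares were also small, 0.0250% for H3K4me3 and 0.112% for H3K36me3. The nearest WT-higher H3K27ac event to any strong site was 143701 bp away, and the median distance was 1824 kb, against 1394 kb for the other events. Few of the other events, 0.562%, had a WT-higher H3K27ac event within 50 kb. The rule used the H3K27ac reads of both genotypes, so these distances are a description. Within 50 kb, 11 sites had a WT-higher H3K4me3 event (3.58%, against 5.17% of the other events) and 2 had a WT-higher H3K36me3 event (0.651%, against 3.68%). The closest WT-higher event of any mark was an H3K36me3 event 4609 bp from the site at 125321385 on chromosome 2, where H3K27ac had 474.2 KO reads against 74.8 (6.34, 5.04 to 8.05).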

How the data were processed

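H3K27ac was measured by chromatin immunoprecipitation and sequencing in 1 labelled sample per genotype, and replicates were pooled per the names of the deposited lists. Build mm9 and TopHat 1.4 are named, without their roles, per the submitters' processing notes. Events were predicted with GPS or GEM, per the file headers and names. Library depth is unknown. Deposited values were, per the file headers, an estimated count of reads in the higher genotype, a scaled signal of the other genotype, an expected signal, the fold of both, −log10 q and p, and 2 scores. Per the file names, the H3K4me3 lists and the WT H3K36me3 list came from GEM and the others from GPS.

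From these, the ratio was the estimated count over the scaled reads. In the KO lists the WT reads had been scaled by 0.85 (H3K27ac), 2.15 (H3K4me3) and 0.575 (H3K36me3). Each factor was recovered as the step of which most control values are whole multiples (within 0.06). The step search used only events whose own count was whole, 3971, 463 and 1308 in number, and 88.8%, 94.4% and 96.3% of their control values were such multiples. Tested on 4 simulated lists of 8323 events, the step search had an error of 0. All simulated own counts were whole and all simulated control values were rounded multiples of the step, unlike the real lists. That error therefore does not measure how sure the real factors are. In the WT-higher H3K27ac list, the same search gave a factor of 1.09 for the KO reads, which is not the inverse of 0.85. The 2 H3K27ac lists thus differ in recovered scale, and the number of strong sites on the scale of the WT-higher list was not computed. Unscaled reads, rounded, gave the intervals. The reads carry no molecular identifiers and may repeat a molecule, and intervals cover counting error only. Shares have exact Clopper-Pearson intervals, apart from the limit of 0.977% for WT-higher events, which takes 3 events for a count of 0. Python 3.11.15, NumPy 2.4.6, pandas 2.3.3 and SciPy 1.17.1 were used. Sites named were those with the 10 largest ratios, lower limits or KO reads, those with both other marks, and those at the threshold. Others, among them the chains, the contrasts between marks and the sites with H3K36me3, were chosen after their values were seen. Members and lists were chosen with earlier results of these data known. Alternatives are given in the closing section. Sequence motifs and distance to genes were left out, for want of a genome and annotation in mm9.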

Additional observations from a re-analysis of the deposited data

How the results depend on the processing

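The set follows its threshold: 602 sites passed at a ratio of 5 and 111 at 8, against 307 at 6. With each genotype over its own expected reads (a scale added for this count after seeing the data), 101 passed, and the median ratio of the 307 sites was 5.20 in place of 7.30. The other 7 alternative counts stayed within 1.5 times the main count, from 213 with regions merged within 10 kb to 372 with no limit on events per region. The share of sites with KO-higher H3K4me3 was 15.3% within 5 kb and 17.1% at a ratio of 8 or more, against 11.1%. Among the other 8007 events it was 6.36% within 5 kb. That for H3K36me3 was 0.651% within 500 bp, 11.4% within 5 kb and 16.0% within 10 kb, against 2.93%. The other events had 0.287%, 5.06% and 7.98% at these 3 distances, so their share rose with distance too. Within 500 bp the intervals of the 2 sets overlap. Of 28 alternatives in all, 19 stayed within the interval, the quartiles or 1.5 times of the main value. Leaving out chromosome 12, counting regions once and the 10 kb distance were also chosen after seeing the data. Motifs and gene starts were not run. No paired analysis was possible because each genotype has 1 pooled value, which also leaves no replicate to omit. Reads limit H3K36me3 most: its events in the KO list had a median of 40.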
